A study of Mus musculus with 2 samples.

Results

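The genes described here are the 76 mitochondrial ribosomal protein genes among the 23284 gene symbols measured by RNA-seq in hematopoietic stem cells of the fetal liver (FL). They were chosen by name, as every symbol made of Mrpl or Mrps, a number and at most 1 letter, with pseudogenes left out. The rule itself uses no measured value, although it was set with earlier results of these data known. Cells were sorted from mouse FLs at embryonic stage E14.5 as lineage marker-negative, Sca-1-positive, c-Kit-high and CD48-negative cells (LSK CD48–), with 1 library from WT fetuses and 1 from ESAM-null fetuses. ESAM is an adhesion molecule of endothelial cells and HSCs, and the null allele was a conventional knockout, so that the other tissues of these fetuses, the endothelium among them, lacked ESAM too. How many fetuses and cells went into a library, and of which strain, is not stated. The labels also describe sorted cells as plated in methylcellulose medium, and the values were read here as those of the sorted cells. Each genotype has a single library, so that no difference can be held against replicates and no p-value is given. In such bulk samples fewer cells of a type cannot be told apart from less RNA per cell.

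Mitochondria keep a ribosome of their own, which translates the few proteins encoded by mitochondrial DNA, all of them subunits of the respiratory chain or of ATP synthase. Its RNAs come from mitochondrial DNA, whereas its proteins are encoded in the nucleus, made in the cytosol and imported. Mrpl genes encode proteins of the large subunit, which joins amino acids, and most Mrps genes encode proteins of the small subunit, which reads the messenger RNA. Some of these proteins have relatives in bacteria and others are found in mitochondria alone. Fetal liver HSCs divide actively, and hematopoietic stem cells are known to be sensitive to changes in protein synthesis and in mitochondrial function.

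Levels are given as FPKM, the fragments of a gene scaled by the length of its exons and by the depth of the library. Esam, the deleted gene, was at 117.6 FPKM in WT and 12.1 in ESAM-null. Among markers of the sorted fraction, Kit was 94.4 FPKM in WT and 76.4 in ESAM-null, and Ly6a, which encodes Sca-1, was 99.8 and 96.7 FPKM. The stem cell markers Procr, Cd34 and Slamf1 went the other way. Procr was 120 FPKM in WT and 143 in ESAM-null, Cd34 was 230 and 240 FPKM, and Slamf1 was 5.21 and 8.25 FPKM. Cd48 was listed at 16.6 and 22 FPKM although the cells were sorted as CD48–. Of 11 markers of erythroid, hepatic, lymphoid, myeloid, megakaryocytic and endothelial cells, 9 had at least 1 FPKM in a library. These 9 summed to 49.5 FPKM in WT and 61.6 in ESAM-null, and the T cell marker Cd3e was listed at 0 in both. The steps between low values put the number of fragments by which FPKM was scaled at about 9315560 in WT and 10179400 in ESAM-null. This scale is not a count of the reads in a library. Reads estimated from FPKM and transcript length, over genes that reached 1 FPKM in either library, summed to about 9477730 in WT and 11643400 in ESAM-null. All FPKM values of a library summed to 751784 in WT and 911736 in ESAM-null, 1.21-fold more.

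All 76 genes were at 10 FPKM or more in both libraries. In WT they ran from 13.95 to 466 FPKM with a median of 85.3, and in ESAM-null from 13.5 to 819 FPKM with a median of 112. FPKM is a level per length, so that levels can be set side by side between genes. The median gene of the family lay at percentile 88.5 of the 12066 genes that reached 1 FPKM in either library, called the genes tested below. The order of the genes was nearly the same in both libraries, with a Spearman rho of 0.96 and a Pearson r of 0.97 on the log2 scale across the 76 genes. These points share the same pair of libraries, and the genes keep their lengths in both.

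Of the 76 genes, 71 were higher in ESAM-null than in WT and 5 were lower. Over all genes tested, 50.0% were higher in ESAM-null, and of the 5732 genes between the lowest and the highest mean level of the family (13.7 to 643 FPKM), 59.1% were higher. The median log2 ratio of ESAM-null to WT was 0.46, a ratio of 1.37, with quartiles of 0.25 and 0.63. It was 0.00 over all genes tested and 0.10 over the genes in the level range of the family, and 67 of the 76 lay above the second value. Summed over the family, 8615 FPKM in WT became 12331 FPKM in ESAM-null, a ratio of 1.43. The scale of the libraries bears on the count: rescaling both to an equal total moves each log2 ratio by -0.28, after which 53 genes were higher and 23 lower, with a median of 0.18 beside -0.28 over all genes tested. The same rescaling raised the share of lower genes among all genes past 2-fold from 63.2% to 77.1%.

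Differences of 2-fold or more were about as rare in the family as among all genes in its level range. At least 2-fold differences were seen in 1 of 76 genes upward and in 0 of 76 downward. The background for these counts was 7.42% of genes tested at least 2-fold higher and 12.8% at least 2-fold lower, or 1.74% and 2.27% in the level range of the family. Of the 76, 29 were at least 1.5-fold higher in ESAM-null, and 20 were within 1.2-fold in either direction. The shares over all genes tested were 17.4% and 31.8%, and those in the level range of the family 12.9% and 43.3%. Reads per gene were estimated from FPKM and transcript length, and gave between 130 and 5960 reads for a gene of the family in a library. The highest number, for Mrps26, rests on a transcript length of 4278 bases, which exceeds its RefSeq span (chromosome 2, 130563757 to 130565394). The lengths used for Mrpl51 and Mrpl32 also exceed their RefSeq spans. The reads of these genes may be overstated and their intervals too narrow. The 95% exact (Clopper-Pearson) interval of the ratio lay wholly above 1 for 65 genes and wholly below 1 for 1 gene, and held 1 for the other 10. PCR copies are not independent molecules, and the interval therefore covers no more than counting error. Over all genes tested these shares were 36.6% above and 36.6% below. Intervals here and below are those at the deposited scale. Rescaling to an equal total divides each bound by 1.21, which changes how many lie above or below 1. The intervals were not recounted at that scale.

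**Figure D1:**
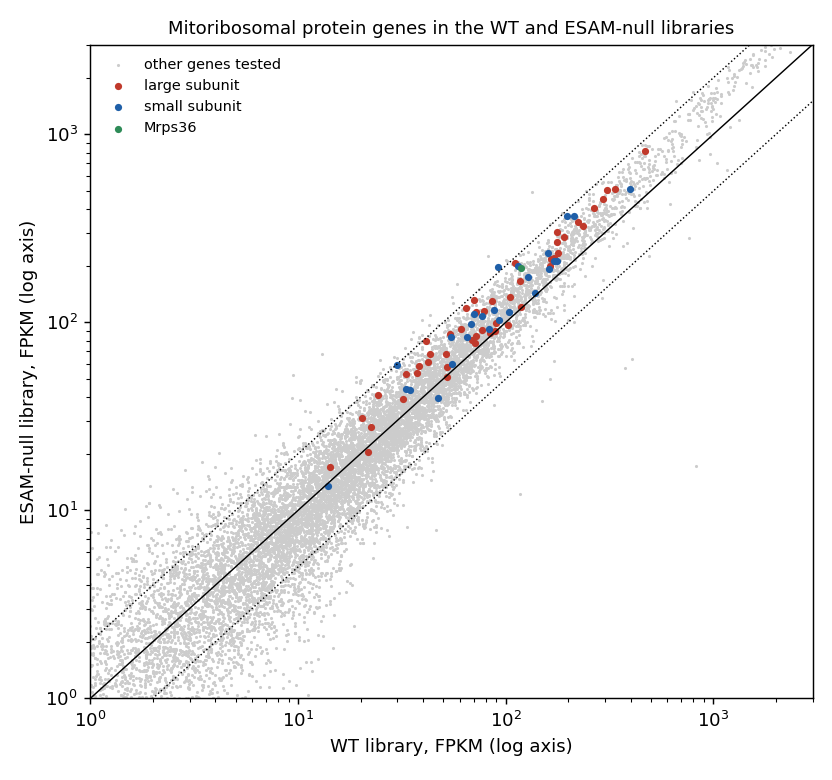
FPKM in the WT library (x axis) and in the ESAM-null library (y axis), both on log axes, for large subunit genes (red), small subunit genes (blue), Mrps36 (green) and the other genes tested (grey). The solid line marks equal values and the dotted lines 2-fold; 71 of the 76 colored points lie above the solid line, and 1 lies above the upper dotted line.

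The gene past 2-fold was Mrps34, which encodes a small subunit protein without a bacterial relative (chromosome 17, 24895120 to 24896289 in mm10). It was 91.4 FPKM in WT and 196.6 in ESAM-null, 2.15-fold higher with a counting interval of 1.96 to 2.37. Of the 75-base read positions of its transcript, 51.0% also occur in an annotated transcript of its neighbor Mapk8ip3, so that some of its reads may count for either gene. Just inside the threshold lay Mrps22 (chromosome 9, 98588730 to 98601679), another small subunit protein of mitochondria alone and a known disease gene of mitochondrial translation. It was 29.97 FPKM in WT and 59.5 in ESAM-null, 1.99-fold higher (1.72 to 2.30). Since the interval of each gene holds 2, the counts do not separate them from each other or from the threshold.

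Among the other large ratios, Mrpl49 was 41.3 FPKM in WT and 79.9 in ESAM-null, 1.93-fold higher. Mrpl27, the relative of bacterial L27 near the peptidyl transferase center, was 110.7 and 207 FPKM, 1.87-fold higher. Mrps16, the relative of bacterial S16, was 196 and 366 FPKM, 1.87-fold higher (1.78 to 1.95), and Mrpl24 was 70.4 and 131 FPKM, 1.86-fold higher. The intervals of these 4 genes overlap one another. Exons of Mrpl49, Mrpl27 and Mrpl24 overlap those of the neighbors Syvn1, Eme1 and Rrnad1, and reads of overlapping genes cannot be told apart without strand, which the cDNA kit does not mark.

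At the other end, Mrps2, the relative of bacterial S2 (chromosome 2, 28465951 to 28471177), was 47.2 FPKM in WT and 39.5 in ESAM-null, 1.2-fold lower. Its ratio of 0.836 had a counting interval of 0.757 to 0.924. At the deposited scale Mrps2 was the 1 gene of the family whose interval lay below 1. The other 4 lower genes were Mrpl19, Mrpl22, Mrps25 and Mrpl50. Mrpl22, whose bacterial relative lines the exit tunnel of the ribosome, was 103 and 96.7 FPKM, and Mrpl50 was 52.4 and 51.3 FPKM. Mrpl19 was 21.8 and 20.5 FPKM, and Mrps25 was 13.95 and 13.5 FPKM and shares 72.9% of its read positions with neighboring genes. Mrpl19 shares 39.8% and Mrpl22 26.9% of theirs with other annotated genes. At the deposited scale the intervals of all 4 held 1, and at this depth their libraries could not be told apart.

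The ratios were uneven beyond counting error. Set against the median ratio of the family, 1.37, the interval lay below it for 25 genes, held it for 25 and lay above it for 26. Mrps2 and Mrps34 mark the ends, with intervals of 0.757 to 0.924 and 1.96 to 2.37 that are far apart. How much 2 libraries of 1 genotype would scatter cannot be read from these data.

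**Figure D2:**
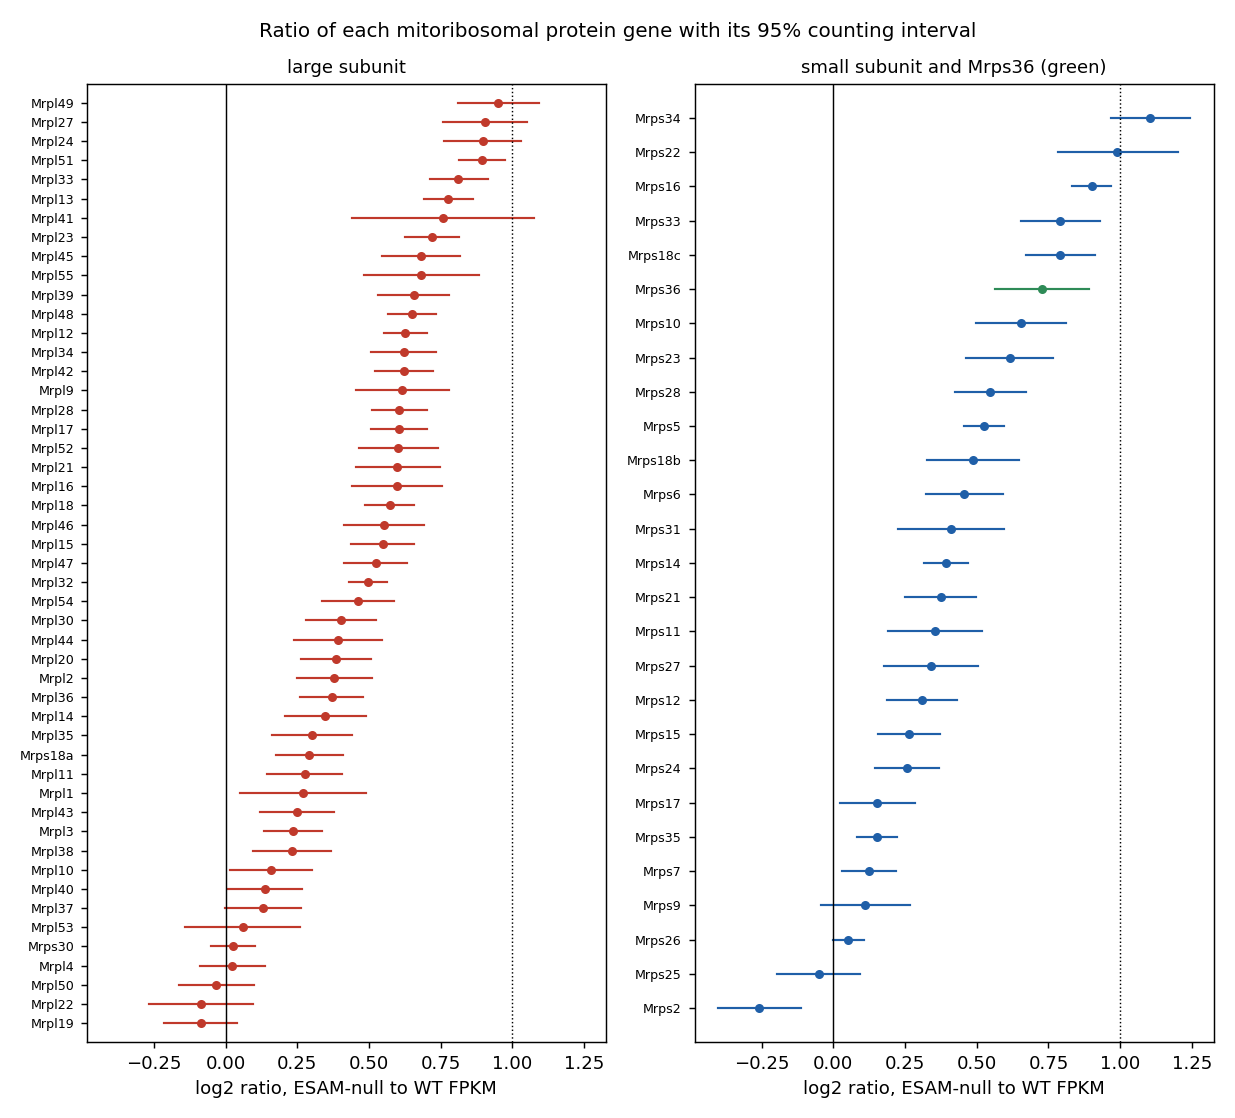
Log2 of ESAM-null FPKM over WT FPKM for each gene of the large subunit (left) and of the small subunit with Mrps36 (right), ordered by ratio. Bars are 95% counting intervals, the solid line marks equal values and the dotted line 2-fold; the points run from -0.26 for Mrps2 to 1.10 for Mrps34.

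The most abundant transcripts of the family encode small proteins. Mrpl33, with a coding sequence of 195 bases (chromosome 5, 31613951 to 31622644), was the highest in both libraries, at 466 FPKM in WT and 819 in ESAM-null, 1.76-fold higher (1.64 to 1.88). Mrps21 followed with 396 and 513 FPKM, 1.30-fold higher (1.19 to 1.41). The intervals of this pair do not overlap, so the 2 highest genes differed in ratio by more than counting error. Mrpl52 was 336 and 509.8 FPKM, Mrpl23 was 307 and 506 FPKM, Mrpl42 was 294 and 452 FPKM, and Mrpl34 was 265 and 407 FPKM. These 4 large subunit genes had ratios between 1.52 and 1.65. Mrpl23 shares 75.4% of its read positions with a pseudogene, and its level is uncertain for that reason. Mrpl33 shares 26.0% and Mrpl42 12.5% of theirs with another annotated gene, which bears on their levels too.

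The lowest members were Mrps25, Mrpl19, Mrpl1, Mrpl35, Mrpl17 and Mrpl41. Mrpl1, the relative of bacterial L1, was 14.2 FPKM in WT and 17.1 in ESAM-null, and Mrpl35 was 22.5 and 27.8 FPKM. Mrpl17 was 20.3 and 30.9 FPKM, 1.52-fold higher, and Mrpl41 was 24.3 and 41.0 FPKM, 1.69-fold higher on about 130 and 240 reads. Low members thus held both near-equal values and ratios above that of Mrps21.

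By place in the ribosome, 49 genes encode large subunit proteins and 26 small subunit proteins. This count follows the structure of the mammalian mitoribosome, in which Mrps30 and Mrps18a belong to the large subunit. Of the 49 large subunit genes, 46 were higher in ESAM-null, and the median log2 ratio was 0.52, and of the 26 small subunit genes 24 were higher, with a median of 0.38. The order of these medians was not stable: without the genes whose exons overlap another gene they were 0.40 and 0.41, and without those that share over 10% of read positions with another gene 0.50 and 0.34. Large subunit genes with bacterial relatives had a median of 0.55 (27 of 29 higher) and those of mitochondria alone 0.49 (19 of 20 higher). In the small subunit the medians were 0.36 (15 of 16 higher) and 0.45 (9 of 10 higher), and the quartiles of the 4 groups overlapped. Mrps18a and Mrps18b were counted here among the proteins of mitochondria alone, although they are related to a bacterial protein.

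Mrps18a, Mrps18b and Mrps18c are paralogs related to a single bacterial protein, S18, and their products sit at different places in the ribosome. Mrps18a was 163 FPKM in WT and 199 in ESAM-null, 1.22-fold higher (1.13 to 1.33). Mrps18b was 76.8 and 107.6 FPKM, 1.40-fold higher (1.25 to 1.57). Mrps18c was 212 and 367 FPKM, 1.73-fold higher (1.59 to 1.88), and its interval lay above those of both others, although with reads estimated from coding length alone it overlapped that of Mrps18b. Of the read positions of Mrps18b, 76.9% also occur in transcripts of other annotated genes. Mrps30, a large subunit protein despite its name, was 88.7 and 90.4 FPKM, with a ratio of 1.02 (0.965 to 1.07). Mrps36, now assigned to the 2-oxoglutarate dehydrogenase complex of the citric acid cycle and not to the ribosome, was 118 and 195 FPKM, 1.66-fold higher (1.48 to 1.86). Read positions shared with other annotated genes made up 16.2% for Mrps30 and 25.2% for Mrps36, pseudogenes of Mrps36 among them.

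Mitoribosomal proteins are also encoded by genes with other names, of which 7 were listed. All 7 were higher in ESAM-null, each with a counting interval above 1, and their median log2 ratio was 0.51. Chchd1, a small subunit protein, was 222 FPKM in WT and 444 in ESAM-null, 1.997-fold higher and just short of the threshold, with an interval of 1.84 to 2.17. Ict1, a peptidyl-tRNA hydrolase built into the large subunit and also named Mrpl58, was 87.9 and 159.9 FPKM. Gadd45gip1, which sits near the exit of the large subunit, was 86.5 and 138 FPKM, and Mrp63, also named Mrpl57, was 45.4 and 64.5 FPKM. Dap3, a GTP-binding protein of the small subunit, was 28.6 and 39.2 FPKM. Aurkaip1 was 104 and 129 FPKM, and Ptcd3, an RNA-binding protein of the small subunit, was 43.1 and 52.7 FPKM.

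Levels and lengths moved with the ratio across all genes, and these values stand beside those of the family. Over all genes tested the median log2 ratio was -0.07 between 10 and 30 FPKM, 0.10 between 30 and 100, 0.29 between 100 and 300, and 0.49 at 300 FPKM or more. In the same ranges the family had medians of 0.27 (5 genes), 0.40 (36 genes), 0.46 (29 genes) and 0.62 (6 genes). Of the 76 genes, 64 were above the median of all genes tested in their own level range. By coding length, genes tested under 450 bases had a median of 0.43 and those of 900 to 1500 bases 0.03, and the family had medians of 0.62 (23 genes) and 0.34 (15 genes). The family is short, with a median coding length of 574.5 bases beside 1293 over all genes tested.

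Level and length were also combined. Between 30 and 100 FPKM with coding sequences of 600 bases or more, the 24 genes of the family had a median log2 ratio of 0.40 beside 0.05 over 1865 genes tested. Between 100 and 300 FPKM at these lengths, the 10 genes of the family had 0.49 beside 0.21 over 526 genes. Under 600 bases the values lay closer: 0.48 for 12 genes beside 0.29 over 430 between 30 and 100 FPKM, and 0.46 for 19 genes beside 0.39 over 322 between 100 and 300 FPKM. The part of level and length in the higher values of the family was not tested.

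**Figure D3:**
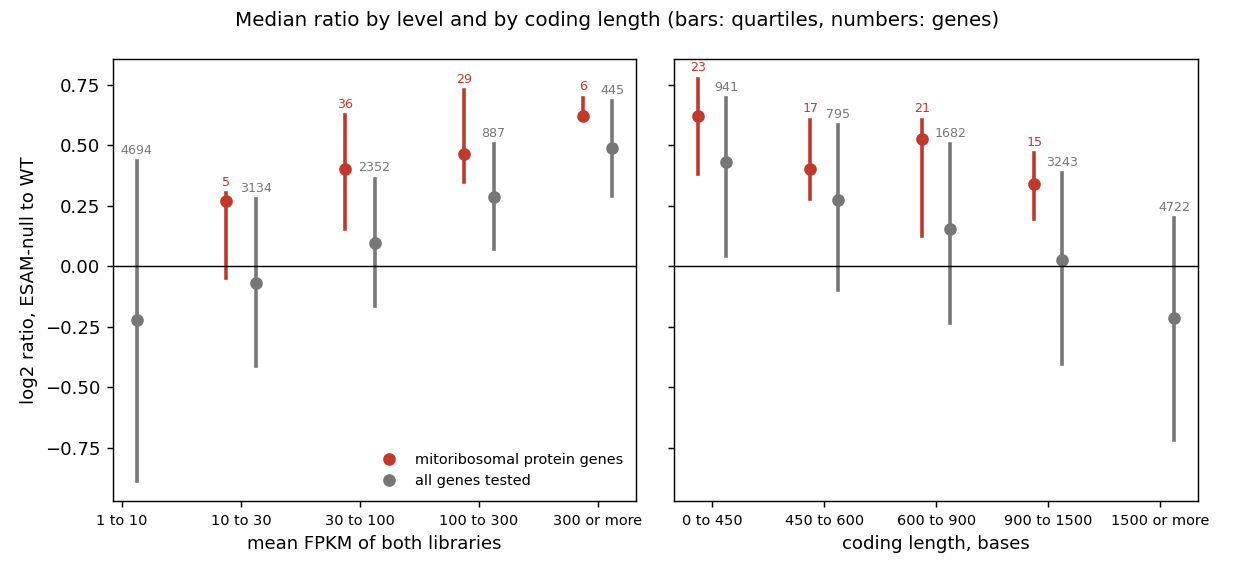
Median log2 ratio of ESAM-null to WT (points) with quartiles (bars) by mean FPKM of both libraries (left) and by coding length in bases (right), for the mitoribosomal protein genes (red) and all genes tested (grey, the family among them); numbers above the bars count genes. Both medians are higher in the ranges of high level than in those of low level and lower in the longest genes than in the shortest, and the red point lies above the grey one in each range that holds genes of the family.

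Within the family the same relations were weak, about as weak by rho as over all genes tested and somewhat stronger by r. Across the 76 genes, the log2 ratio had a Spearman rho of 0.28 (Pearson r 0.31) with log2 mean FPKM and of -0.31 (r -0.29) with coding length, beside 0.25 (r 0.20) and -0.32 (r -0.20) over 11064 genes tested. Level and coding length were related to each other in the family, with a rho of -0.52. GC content of the transcript had a rho of -0.04 with the ratio in the family. These are descriptions across genes of the same 2 libraries, and genes are not independent replicates.

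Other genes of mitochondrial translation were mixed in direction and lower in level, with list medians between 14.1 and 24.8 FPKM. Their counts stand beside the background at that level: of all genes tested between 10 and 30 FPKM, 44.6% were higher in ESAM-null, with the median of -0.07 given above. Of 24 mitoribosome assembly genes, 16 were higher in ESAM-null and 8 lower, at a median log2 ratio of 0.14 and with none past 2-fold. Their counting intervals lay above 1 for 8 genes and below 1 for 3, and held 1 for 13. Fastkd2, an RNA-binding protein needed for the large subunit RNA, was 17.1 FPKM in WT and 33.5 in ESAM-null, and Mterfd2, now named Mterf4, was 6.99 and 12.6 FPKM. Dhx30, an RNA helicase of ribosome assembly, was 41.4 and 23.0 FPKM. As means of both libraries these genes had a median of 24.8 FPKM and the mitoribosomal protein genes 95.5 FPKM.

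Of 14 mitochondrial translation factors, 6 were higher and 8 lower, with intervals above 1 for 3, below 1 for 5 and holding 1 for 6. The median was -0.03, and 1 gene was past 2-fold. That gene, Taco1, an activator of translation of a cytochrome oxidase subunit, was 10.8 FPKM in WT and 3.37 in ESAM-null. Slirp (listed as 1810035L17Rik), which protects mitochondrial messenger RNAs, was 234 and 402 FPKM. Mtfmt, which formylates the initiator tRNA, was 14.4 and 10.2 FPKM. Picked after their values were seen, the elongation factor gene Tufm was 92.7 and 126 FPKM, and Lrpprc, the partner of Slirp, was 16.8 and 14.4 FPKM.

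Of 20 genes that charge mitochondrial tRNAs, 12 were higher and 8 lower, with a median of 0.13. Their intervals lay above 1 for 9 and below 1 for 4, and held 1 for 7. Past 2-fold were Lars2, the leucyl-tRNA synthetase, at 662 FPKM in WT and 1511 in ESAM-null, and Aars2, the alanyl-tRNA synthetase, at 9.68 and 2.42 FPKM. Lars2 lay far above the median mean level of this list, 15.5 FPKM. Read positions shared with other transcripts were examined for the family only, so the level of Lars2 is uncertain. Fars2, the phenylalanyl-tRNA synthetase, was 19.7 and 38.8 FPKM. Of 9 genes that copy or transcribe mitochondrial DNA, 4 were higher and 5 lower, with a median of -0.36. Polg, the DNA polymerase, was 19.2 FPKM in WT and 8.84 in ESAM-null, past 2-fold, and Polrmt, the RNA polymerase, was 12.9 and 7.46 FPKM. Mterf, of a family of transcription termination factors, was 3.66 and 2.54 FPKM, with an interval of 0.413 to 1.13 that held 1. The 4 higher genes, Tfam, Ssbp1, Peo1 and Tefm (listed as 1110002N22Rik), each had an interval above 1 and were picked after their values were seen. Tfam, which packages mitochondrial DNA, was 23.1 and 29.0 FPKM, and Ssbp1, which binds it when single-stranded, was 88.0 and 110.4 FPKM.

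In 2 other families of short, abundant transcripts the median ratio was above that of the mitoribosomal protein genes. Of 76 cytosolic ribosomal protein genes tested, 75 were higher in ESAM-null, and the median log2 ratio was 0.70, and of 81 nuclear-encoded subunits of the respiratory chain 79 were higher, with a median of 0.57. Their median levels were 1660 and 425 FPKM. At 300 FPKM or more the medians were 0.70 for 71 cytosolic genes, 0.61 for 49 respiratory chain genes and 0.62 for 6 mitoribosomal genes. Between 100 and 300 FPKM, the range that holds 29 mitoribosomal and 23 respiratory chain genes, the medians were 0.46 and 0.36. No test of these differences can be made with 1 library per genotype.

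**Figure D4:**
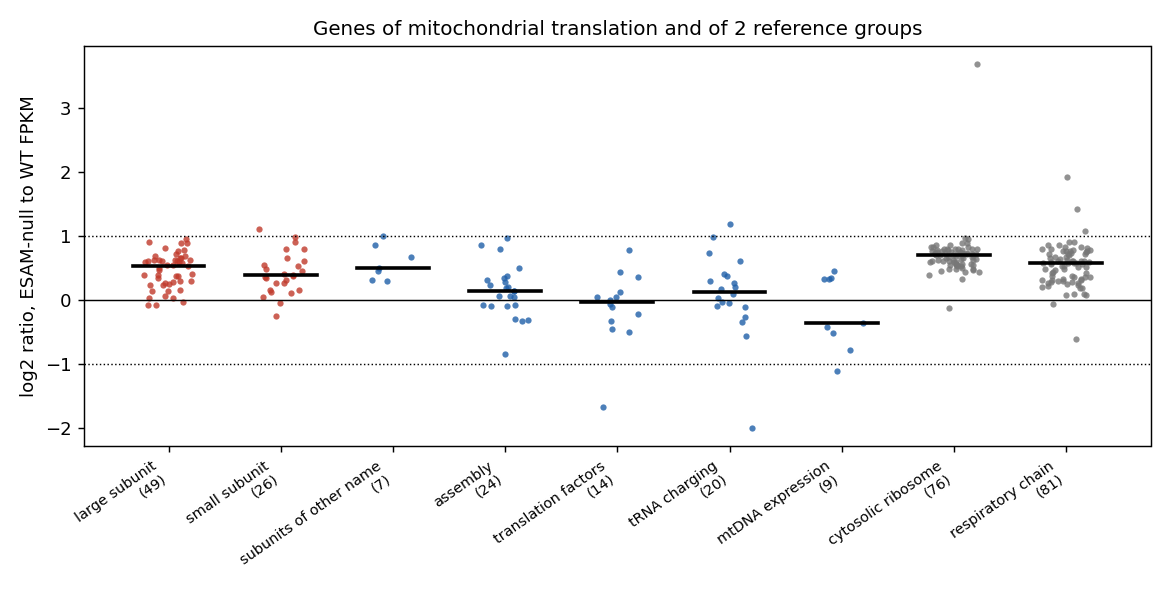
Log2 of ESAM-null FPKM over WT FPKM (y axis), with 1 point per gene, the number of genes in parentheses and the median as a black line. Red marks the Mrpl and Mrps genes of the large and small subunit. Blue marks other groups of mitochondrial translation, among them the mitoribosomal subunits of other name, and grey marks cytosolic ribosome and respiratory chain. Dotted lines mark 2-fold; the medians run from 0.70 for the cytosolic ribosome to -0.36 for the genes that copy or transcribe mitochondrial DNA.

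The 76 genes lie on 17 chromosomes. On chromosome 9, where Esam lies, the family has Mrpl3, Mrpl4 and Mrps22. The nearest to Esam is Mrpl4, 16.5 Mb away, at 119 FPKM in WT and 121 in ESAM-null. A protein-coding gene starting on the opposite strand within 1000 bases, facing away and with no overlap between the outermost GENCODE starts, was found for 17 of the 76 genes (22.4%) and for 1244 of 11365 protein-coding genes tested (10.9%). Mrpl46 and Mrps11 are not among the 17 because their outermost GENCODE transcripts overlap. In 16 of these pairs the neighbor was a tested gene outside the family. The neighbors had a median log2 ratio of 0.06, with 10 of 16 higher, and the mitoribosomal genes beside them 0.47, with 15 of 16 higher. Their median levels were 17.7 and 93.4 FPKM. The pairs named next were picked after their values were seen. Helq, which starts 29 bases from Mrps18c, was 6.49 FPKM in WT and 2.58 in ESAM-null, while Mrps18c was 212 and 367 FPKM. Ppp1r10, 45 bases from Mrps18b, was 11.1 and 5.31 FPKM. Fau, the partner of Mrpl49 and itself a gene of the cytosolic ribosome, was 1089 and 1595 FPKM.

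Promoter windows of 250 bases before and 50 bases after the start were available in RefSeq (GRCm38.p6, the same build as mm10) for 67 of the 76 genes, as 73 windows. Promoters of mitochondrial protein genes are known for sites of the factors NRF1 and GABP, the second an ETS protein. The letters CCGGAA, the core of ETS sites, were found on either strand in 56.2% of the 73 windows, in 27.7% of 12217 windows of genes tested and in 14.9% of all 32851 windows. Letters of the NRF1 site, GCATGCGC, were found in 11%, 5.25% and 2.71%, and the shorter TGCGCA, which can overlap the longer one, in 27.4%, 13.9% and 7.76%. A match is a run of letters and does not show that a factor binds. The ratio did not follow these letters in 1 direction: the median log2 ratio was 0.41 for the 38 genes with CCGGAA and 0.52 for the 29 without, 0.39 for the 19 genes with TGCGCA and 0.52 for the 48 without, and 0.55 for the 8 genes with GCATGCGC and 0.40 for the 59 without.

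The stretches of 120 bases before the start are given for the gene of highest level (Mrpl33), a gene of high ratio with a window (Mrps22) and the 3 paralogs, on the strand of each gene from 5′ to 3′, with the letters above in capitals. They lie at chr5:31613831-31613950 (plus strand), chr9:98601680-98601799 (minus strand), chr17:46110884-46111003 (plus strand), chr17:35916441-35916560 (minus strand) and chr5:100798639-100798758 (plus strand).
Mrpl33: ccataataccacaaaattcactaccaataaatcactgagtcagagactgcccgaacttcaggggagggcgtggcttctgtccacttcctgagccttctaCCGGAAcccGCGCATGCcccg
Mrps22: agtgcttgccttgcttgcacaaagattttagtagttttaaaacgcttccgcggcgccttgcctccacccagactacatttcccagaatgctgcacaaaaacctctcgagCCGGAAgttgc
Mrps18a: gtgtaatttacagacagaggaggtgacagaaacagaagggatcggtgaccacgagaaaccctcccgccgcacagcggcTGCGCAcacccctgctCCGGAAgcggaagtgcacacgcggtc
Mrps18b: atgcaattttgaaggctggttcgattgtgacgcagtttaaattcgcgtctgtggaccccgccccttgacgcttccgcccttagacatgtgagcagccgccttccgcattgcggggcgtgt
Mrps18c: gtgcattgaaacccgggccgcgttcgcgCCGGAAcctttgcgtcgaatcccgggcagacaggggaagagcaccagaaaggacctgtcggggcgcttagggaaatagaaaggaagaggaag
Mrpl33 and Mrps22 hold CCGGAA close to the start, and Mrpl33 also holds the NRF1 letters. Mrps18a and Mrps18c hold CCGGAA and Mrps18b none of the letters searched, whereas its ratio of 1.40 lay between those of the others.

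A pair of the family lies back to back on chromosome 7, Mrpl46 on the minus strand and Mrps11 on the plus strand, transcribed away from each other, and was picked for its position after its values were seen. The stretch between their RefSeq starts, chr7:78783090-78783130 on the plus strand, is 41 bases long and holds none of the letters searched.
Mrpl46 and Mrps11: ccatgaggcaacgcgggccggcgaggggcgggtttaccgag
Mrpl46, of the large subunit, was 78.2 FPKM in WT and 114.7 in ESAM-null, 1.47-fold higher (1.33 to 1.62). Mrps11, the relative of bacterial S11, was 65.2 and 83.3 FPKM, 1.28-fold higher (1.14 to 1.43). The intervals of the pair overlap, so that their ratios were not separable at this depth.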

How the data were processed

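RNA from sorted WT and ESAM-null FL LSK CD48– cells was made into cDNA with a SMART-Seq v4 kit and sequenced as 75 bp single-end reads, 1 library per genotype. Cuffnorm 2.2.1, TopHat2 2.0.13 with Bowtie2 2.2.3, SAMtools 0.1.19 and the build mm10 stand in the processing notes of the submitters. Not stated there are the gene annotation, the normalization between libraries and the treatment of reads with several matches. The authors deposited FPKM per gene symbol, and these values were used as deposited. Genes that reached 1 FPKM in either library were compared as the ratio of ESAM-null to WT, with no test. Reads per gene were estimated from the steps of low FPKM values and GENCODE transcript lengths on GRCm38, assuming fragments of 200 ± 80 bp (SD). Of the low values checked, 69.8% of 688 (WT) and 72.5% of 429 (ESAM-null) lay within 0.05 read of a whole number, so read numbers and intervals are approximate. Coding lengths were found for 94.3% of genes tested and for all 76 members of the family.

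Members and gene lists were chosen with earlier results of these data known. Genes were named by rule: members past 2-fold or nearest to it, the 6 highest, the 6 lowest, the 6 largest ratios in each direction (5 genes were lower), the Mrps18 paralogs, Mrps30, Mrps36, mitoribosomal proteins of other name, and up to 3 genes of each other list of mitochondrial translation. Alternatives were other scalings, filters, pseudocounts and folds, and leaving out genes that share exons or read sequences with others. The steps were tested on simulated data. Calculations ran in Python 3.11.15 (scipy 1.17.1, pandas 2.3.3, numpy 2.4.6) and figures were drawn with matplotlib 3.10.9.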

Additional observations from a re-analysis of the deposited data

How the results depend on the processing

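Of 77 alternative values computed, 56 stayed close to the reported ones, 21 moved and 0 reversed. Filters and pseudocounts moved none. For the filters this was fixed in advance, since all 76 genes were at 10 FPKM or more in both libraries. Pseudocounts of 0.1 and 1 could hardly act at these levels. These unchanged values are counted among the 56, so that count overstates the stability of the results. Genes at least 2-fold higher, 1 as reported, were 0 after rescaling to an equal total, 0 without genes that share over 10% of read positions (an alternative chosen after seeing the data), 29 at 1.5-fold and 0 at 3-fold. The median log2 ratio of the family, 0.46, was 0.44 with median scaling, 0.44 with trimmed mean scaling, 0.18 after rescaling, 0.41 without genes whose exons overlap another gene and 0.40 without those that share read positions. For the large subunit, 0.52 became 0.50 with median scaling, 0.25 after rescaling, 0.40 without overlapping genes and 0.50 without sharing genes. For the small subunit, 0.38 became 0.36, 0.11, 0.41 and 0.34 in the same order. The summed ratio, 1.43, was 1.41 with median scaling, 1.42 with trimmed mean scaling, 1.18 after rescaling and 1.38 without sharing genes. Genes with an interval above 1 were 65, or 56 with reads estimated from coding length, an alternative also chosen after seeing the data. Both counts are at the deposited scale and were not repeated after rescaling. No paired analysis was possible because each genotype has 1 library. Without replicates, library preparation and genotype cannot be told apart, and the depth limits small differences: the upper bound of an interval was at the median 1.2 times its lower bound.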
